A study of Mus musculus with 6 samples.

Results

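MicroG1 is the largest of the 3 clusters of microglia, the resident macrophages of the brain, in a single-cell survey of the adult mouse olfactory bulb. Its members were the cells that the study's authors placed in that cluster, without any new clustering, and they numbered 2260 of the 51426 annotated cells. The names of the first and second microglial clusters are exchanged between the deposited annotation and the authors' list of clusters. The 2260 cells carry the name MicroG2 in the annotation, but library by library their numbers are those listed for MicroG1. They are called MicroG1 throughout, and the 790 cells of the other cluster MicroG2.

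Microglia settle in the brain before birth, renew themselves there, and depend on signalling through the receptor Csf1r. They sense purine nucleotides and the chemokine of neurons, Cx3cl1, with thin moving processes, and they clear debris, dying cells and synapses through complement, Trem2 and the lysosome. In the olfactory bulb, where new interneurons keep arriving and sensory axons keep being replaced, such clearance is part of normal life, and type I interferon, injury and tissue dissociation each switch on their own known sets of genes in these cells.

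The mice were C57BL/6NJ and 14 weeks old. In the naris occluded group a plug closed 1 nostril for 6 weeks, which deprives the bulb of that side of odor input. In the trained group water-restricted mice learned odor discriminations over the same 6 weeks, an olfactory enrichment. The labels give the controls as without manipulation, but the study's text in one place takes the open side of the occluded mice as the control. If that holds, control and occluded libraries could come from the same animals, which would make them pairs. Each of the 3 conditions had 2 libraries, each from a pool of 3 mice, and the study states that the pools numbered 1 were male and those numbered 2 female, so sex and any other difference between the numbered pools cannot be told apart.

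The 6 libraries held 6705 to 10570 annotated cells and 11841160 to 17065083 unique molecular identifiers (UMIs), each of which counts 1 captured mRNA molecule at its 3′ end, so that levels need no correction for gene length. MicroG1 contributed 587268 to 952867 UMIs per library. A median MicroG1 cell held 1847 UMIs and 959 genes, with library medians from 1666 UMIs in naris occluded 2 to 2341 in naris occluded 1, and the cells ranged from 532 to 8091 UMIs. The median share of mitochondrial UMIs was 6.49%. Among MicroG1 cells, 127 shared their barcode with a cell of another library, and for 4 of these that other cell also was in MicroG1.

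Control 1 gave 410 MicroG1 cells and control 2 gave 356, the occluded pools gave 254 and 386, and the trained pools 509 and 345. As a share of the library this was 4.10% (95% Wilson interval 3.73 to 4.51) and 4.62% (4.17 to 5.11) in controls. It was 3.49% (3.09 to 3.93) and 4.22% (3.82 to 4.65) after occlusion, and 4.82% (4.42 to 5.24) and 5.15% (4.64 to 5.70) after training. The 2 trained libraries held the highest shares, the occluded and control libraries overlapped, and the intervals cover counting error only. As a share of the 3 microglial clusters the direction turned for training: MicroG1 made up 60.7% and 55.6% in controls, 53.7% and 54.0% after occlusion and 58.8% and 54.6% after training. In a quasi-likelihood test of cell numbers over the 38 clusters (edgeR, adjusted over the clusters), occlusion gave a log2 difference of -0.18 (SE 0.27, adjusted p = 0.731). Training against control gave 0.19 (SE 0.27, adjusted p = 0.760) and training against occlusion 0.37 (SE 0.27, adjusted p = 0.392), so no difference in MicroG1 number passed the test. Of the 38 clusters, 2.63%, 0% and 15.8% passed in the same 3 comparisons. Cell recovery from dissociated tissue, not tissue density, is what these shares measure.

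The study labels its microglia as positive for Siglech and Aif1, so the levels of these genes describe the label and do not test it. Levels are given as CPM, the UMIs of a gene per 1000000 UMIs of the cluster in a library. Siglech, a sialic acid-binding lectin of microglia, stood at 905 ± 123 (SD, n = 6 libraries), and Aif1, which encodes the actin-bundling protein Iba1, at 1225 ± 67.5. Siglech had 765 CPM in MicroG2, 348 in MicroG3, 105 in macrophages (Mf) and 64.0 in monocytes (Mono). Aif1 separated these clusters less, with 1182, 999, 767 and 655 CPM. After thinning each cell to 500 UMIs, 38.1% of MicroG1 cells held a Siglech UMI and 42.8% an Aif1 UMI, against 0.0958% and 0.703% of the cells of astrocyte cluster Astro1, whose median depth was 1851.5 UMIs. Without thinning the shares were 77.6% and 82.3% in MicroG1 and 0.863% and 2.11% in Astro1. No MicroG1 or Astro1 cell fell under 500 UMIs.

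**Figure D1:**
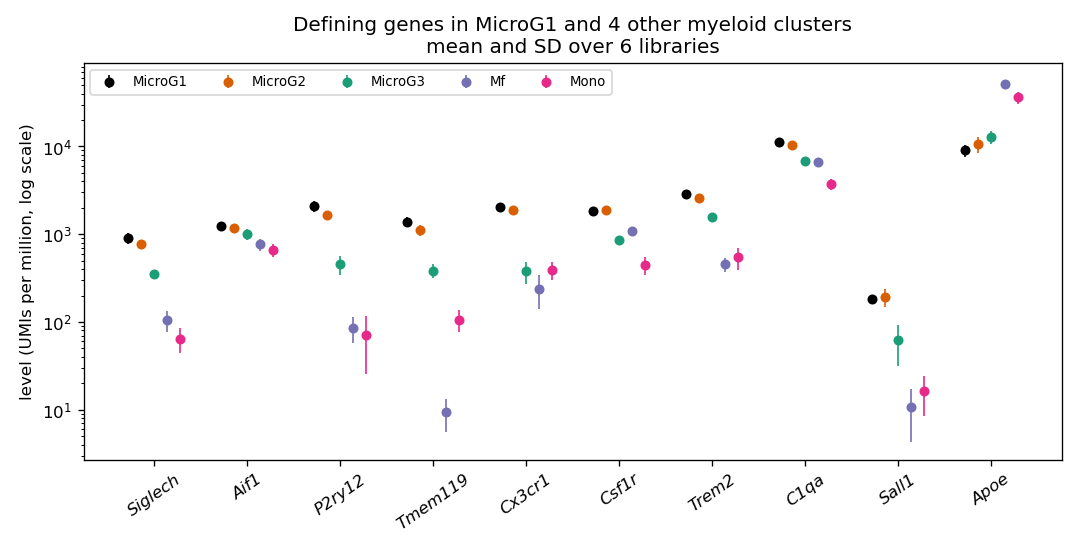
Levels of 10 defining genes in CPM (log axis) in MicroG1, MicroG2, MicroG3, macrophages (Mf) and monocytes (Mono), as the mean over 6 libraries with bars of 1 SD. MicroG1 lies at or near the top for each gene except Apoe, which is highest in macrophages (51643 CPM), and the distance to macrophages is widest for Tmem119 (1372 against 9.38 CPM).

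The surveillance receptors were among the clearest identity genes. P2ry12, the purine receptor that steers microglial processes, reached 2094 ± 325 CPM in MicroG1, 1641 in MicroG2, 453 in MicroG3 and 85.6 in macrophages. Cx3cr1, the receptor for the neuronal chemokine Cx3cl1, stood at 2015 ± 173 CPM and Tmem119, a microglial membrane protein, at 1372 ± 178. MicroG2 shared both, at 1903 and 1110 CPM. Of 25 homeostatic identity genes, 21 had their highest mean of all 38 clusters in MicroG1, some only narrowly above MicroG2, as Aif1 (1225 against 1182 CPM). The next 3, Csf1r (1850 ± 134 CPM), the transcription factor gene Sall1 (183 ± 21.9) and Il10ra (146 ± 12.5), were highest in MicroG2, and the adhesion receptor gene Adgrg1 (173 ± 19.3) was highest in Astro1. Clusters were built from these same genes, so these levels describe the cells and test nothing.

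Among transcripts outside ribosomal and mitochondrial genes Cst3, the secreted cysteine protease inhibitor cystatin C, led with 69188 ± 3067 CPM, followed by the nuclear RNA Malat1 (28762 ± 3167) and the actin-binding peptide gene Tmsb4x (13844 ± 324). All 3 chains of the complement recognition protein C1q were in the top 15, C1qa at 11372 ± 592, C1qb at 9175 ± 456 and C1qc at 7804 ± 336 CPM. The downstream component C3 had 3 UMIs in all of MicroG1, all of them in trained 2, while the subunits of complement receptor 3 were present, Itgam at 258 ± 23.8 and Itgb2 at 150 ± 15.8 CPM. The lysosomal proteases Ctsd (9960 ± 893) and Ctss (5627 ± 390) were among them as well. Apoe (9038 ± 1474), Actb (6054 ± 777), Itm2b (5680 ± 528), the ferritin chains Fth1 (4636 ± 393) and Ftl1 (4280 ± 513), and the signalling adaptor Tyrobp (4165 ± 262) also were in the top 15. Trem2, the lipid receptor that signals through Tyrobp, stood at 2865 ± 233 CPM.

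Secreted signals were lower. Ccl4 (284 ± 76.3 CPM) and Ccl3 (209 ± 66.3), chemokines that attract leukocytes, were the highest of those given here besides Tgfb1 (379 ± 36.3), the growth factor that maintains microglial identity and whose receptor gene Tgfbr1 stood at 749 ± 54.2. Il1b (4.43 ± 3.19) and Tnf (5.36 ± 2.77), the classical inflammatory cytokines, had 1 to 8 UMIs per library. The 32 cell division genes in the table, which include tubulin and histone genes that other cells use too, summed to 1335 ± 103 CPM in MicroG1 and 2106 over all cells. Mki67, a marker of cycling cells, had 3 UMIs in all. Cells with at least 2 UMIs over 12 mitotic genes of that list (Mki67, Top2a, Cdk1, Ccnb1, Ccnb2, Ccna2, Birc5, Cenpe, Cenpf, Nusap1, Ube2c and Tpx2) numbered 1, 3, 0, 0, 2 and 1 in the 6 libraries. Of 16 border macrophage markers 7 had 3 UMIs or fewer in the 2260 cells, among them Lyve1, F13a1 and Cd209f with 0, while Maf (2278 UMIs), Gas6 (771) and Stab1 (601) were present. Of 19 monocyte and dendritic markers 6 had 3 or fewer, among them Ly6c2, Cd209a and Ifitm6 with 0, while Lyz2 (3861), Lst1 (1700), Cd52 (1265) and Cd74 (395) were present.

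MicroG2 was the cluster most like MicroG1. Of 2829 genes with at least 50 CPM in one of them, 57 were over 2-fold higher in MicroG2 and 1 in MicroG1, on ratios of mean CPM with 10 CPM added to each. The 57 were led by immediate early genes, which cells switch on within minutes of a stimulus or of dissociation. Fos, a subunit of the AP-1 factor, had 184 ± 45.4 CPM in MicroG1 and 2564 ± 318 in MicroG2, Ier2 had 57.3 ± 10.8 and 1243 ± 241, and Atf3 had 20.3 ± 4.30 and 413 ± 133. Dusp1, Klf2, Egr1, Fosb, Ier3, Gm26532 and Socs3 made up the rest of the first 10, and each of the 10 was higher in MicroG2 in 6 of 6 libraries. Ccl3 and Ccl4 had 1037 and 1760 mean CPM in MicroG2. In the opposite direction the ratios were small. Rsrp1, a splicing-related gene, had 602 ± 75.3 CPM in MicroG1 and 327 ± 53.1 in MicroG2, followed by Gm26917, Snhg20, Luc7l3, Arhgap31, Arl10, Rpl7l1 and Nagk. The 1 gene over 2-fold higher in MicroG1 was the hemoglobin gene Hba-a1, higher in 3 of 6 libraries. It and Hbb-bs had an SD in MicroG1 above their mean. No test was made, since the clusters were defined on these genes.

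**Figure D2:**
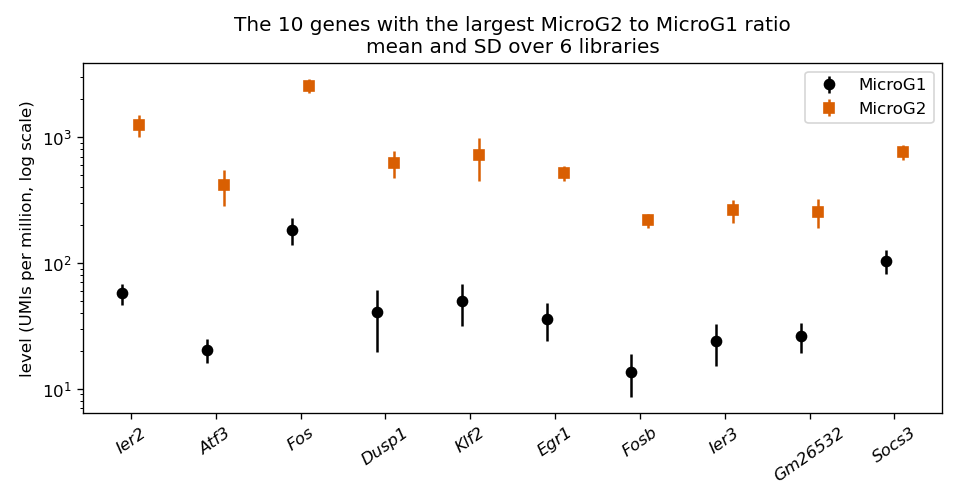
CPM (log axis) in MicroG1 (circles) and MicroG2 (squares) of the 10 genes with the largest MicroG2 to MicroG1 ratio, as the mean over 6 libraries with bars of 1 SD. Every gene is higher in MicroG2 with no overlap of the bars, from Ier2 (57.3 against 1243 CPM) to Socs3 (104 against 759 CPM).

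MicroG3 differed in depth as well as in genes: its 951 cells had a median of 748 UMIs and 14.4% mitochondrial UMIs. Against it, 623 of 2964 genes were over 2-fold higher in MicroG1 and 120 over 2-fold lower. The genes highest in MicroG1 relative to it included Jun (729 against 68.9 CPM), Zfp36, Pld1, Junb, Hist1h1e, Adap2os, Git2, the female-specific Xist, and the nuclear RNA Malat1, at 28762 against 4674 CPM. The 10 highest ratios toward MicroG3 were those of the 4 hemoglobin genes, S100a5 and Gng13 of olfactory sensory neurons (1351 and 1079 CPM, against 413 and 359 in MicroG1), Ptgds, Cxcl14, Gria1 and Gm9844. The hemoglobin excess was in 2 libraries: the 5 red blood cell markers summed to 20134 CPM in MicroG3 of control 1 and 25882 in naris occluded 2, against 63.8 to 141 in the other 4, and 3 MicroG3 cells held at least 5 hemoglobin UMIs. The part of free RNA in the sensory neuron levels was not tested.

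Against macrophages, 345 of 3189 genes were over 2-fold higher in MicroG1 and 261 lower, and against monocytes 421 of 3091 were higher and 264 lower. Macrophages had 5184 CPM of Pf4 against 4.68 in MicroG1, 1429 against 7.14 of the mannose receptor gene Mrc1, and 852 against 1.21 of Ms4a7. Cd209f and F13a1 had no UMI in MicroG1, and Ccl7, Ccl8, Wfdc17, Cbr2 and Ccl2 completed the 10. The genes on the side of MicroG1 included Tmem119 (1372 against 9.38 CPM), Olfml3, Selplg, Ecscr, Abi3, P2ry12, F11r, Cd9 and Plxdc2. Monocytes stood apart by S100a8 (6142 against 3.84 CPM), S100a9, Retnlg, Camp and Ngp, genes of neutrophils and monocytes, and by antigen presentation: H2-Aa had 3807 against 10.2 CPM and Cd74 12797 against 88.1, with H2-Eb1, H2-Ab1 and Ccl5 beside them. Camp (576 ± 858 CPM) and Ngp (513 ± 783) were uneven and each higher in monocytes in only 4 of 6 libraries, and S100a8 had an SD of 4490. P2ry12, Ecscr, Crybb1, Slc2a5, Sparc, Siglech, Tmem119, Gpr34 and Olfml3 were among those on the side of MicroG1.

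The effect of lost odor input on MicroG1 was tested first. UMIs were summed over the MicroG1 cells of each library, and 7599 genes were tested with edgeR's quasi-likelihood test. Between naris occluded and control libraries 5 genes (0.0658% of those tested) had an adjusted p under 0.05, 3 lower (0.0395%) and 2 higher (0.0263%) after occlusion, and 329 had an unadjusted p under 0.05. The count ran from 0 to 22 over the settings tried, so it does not measure how wide the response was. The 3 that fell were the chemokine gene Ccl12, the interferon-induced gene Ifit3 and S100a5, a calcium-binding protein gene of olfactory sensory neurons. The 2 that rose were the hemoglobin genes Hba-a1 and Hbb-bs. Values below are CPM scaled by the trimmed mean of M-values (normalised CPM), and fold changes are log2. The replicates are pools of mice, so a p measures the spread between pools. The fit had condition only, so the stated difference in sex between the 2 pools of a condition is part of that spread. With DESeq2's Wald test Ccl12 kept its call (adjusted p = 0.0120), while Ifit3 and S100a5 had adjusted p = 1, with log2 changes of -2.35 and -1.74.

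Ccl12, a chemoattractant of monocytes, had 360.2 and 242 normalised CPM in the controls, 109 and 123 in the occluded libraries and 202 and 132 in the trained ones. Both occluded values lay below all others, and the fall after occlusion was 1.38 on the log2 scale (log2 fold change -1.38, SE 0.20, adjusted p = 0.00121). Without control 1 the change was -1.06 with adjusted p = 0.106. The UMIs came from 75 and 67 control cells and from 33 and 46 occluded cells, and the 5 cells with most Ccl12 held 113 of the 279 UMIs of control 1. Training against control gave -0.84 (SE 0.19, adjusted p = 0.171), a difference that shares its controls with occlusion. In all annotated cells together Ccl12 was at 86.4 and 60.8 CPM in controls, 73.2 and 55.2 after occlusion, and 60.1 and 89.3 after training, with overlap between the conditions. In MicroG2 it was at 1011 and 394 CPM in controls, 264 and 288 after occlusion and 753 and 712 after training, so the occluded libraries were lowest there as well. In MicroG3, where it had 7 to 43 UMIs a library, they were not both lowest (311 and 129, 70.6 and 221, 116 and 136).

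Ifit3, an interferon-induced protein that limits viral RNA, had 68.4 and 32.3 normalised CPM in the controls and 8.63 and 11.2 after occlusion, a log2 change of -2.34 (SE 0.44, adjusted p = 0.0145). Trained libraries stood at 9.51 and 17.2, a change of -1.98 (SE 0.38, adjusted p = 0.0574), and without the 2 hemoglobin-rich cells described below the adjusted p was 0.0437. The controls were thus above all 4 manipulated libraries. These are small counts: 53 and 22 UMIs in controls, 5 and 7 after occlusion and 9 and 12 after training, and the 5 richest cells held 34 of the 53 and 15 of the 22 control UMIs. Without control 1 the occlusion change was -1.68 and lost the call (adjusted p = 0.998). In MicroG2 Ifit3 was at 95.9 and 10.9 CPM in controls, 19.9 and 31.7 after occlusion and 8.61 and 31.1 after training, so that control 2 lay below both occluded libraries, on 2 to 28 UMIs a library. Over all annotated cells Ifit3 was at 87.5 and 51.9 CPM in controls, 44.5 and 59.5 after occlusion and 24.8 and 40.9 after training. Ifit3b, a near copy of Ifit3, was not tested, and reads shared by the copies cannot be assigned with certainty.

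Interferon-stimulated genes are switched on by the factor ISGF3, which binds an element of repeated GAAA groups. The promoters of Ifit3, Isg15 and Ifit1 are shown because they hold such repeats and their values by library are given here. The sequences are the 250 bases upstream of the annotated start in the RefSeq annotation of GRCm38.p6, which is mm10, written along the strand of the gene, and capitals mark matches to GAAA, any 2 bases and GAAA again, on either strand (TTTC, any 2 bases and TTTC where the match lies on the other strand).
Ifit3 (chr19:34583279-34583528, plus strand): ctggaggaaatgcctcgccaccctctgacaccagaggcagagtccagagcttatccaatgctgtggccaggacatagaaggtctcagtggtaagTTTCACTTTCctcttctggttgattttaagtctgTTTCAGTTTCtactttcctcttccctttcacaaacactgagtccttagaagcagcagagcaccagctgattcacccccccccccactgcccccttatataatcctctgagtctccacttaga
Isg15 (chr4:156200819-156201068, minus strand): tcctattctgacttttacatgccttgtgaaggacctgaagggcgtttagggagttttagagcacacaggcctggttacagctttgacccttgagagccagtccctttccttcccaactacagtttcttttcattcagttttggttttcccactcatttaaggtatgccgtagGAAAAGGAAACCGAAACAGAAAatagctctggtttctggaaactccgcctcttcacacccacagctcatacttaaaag
Ifit1 (chr19:34640639-34640888, plus strand): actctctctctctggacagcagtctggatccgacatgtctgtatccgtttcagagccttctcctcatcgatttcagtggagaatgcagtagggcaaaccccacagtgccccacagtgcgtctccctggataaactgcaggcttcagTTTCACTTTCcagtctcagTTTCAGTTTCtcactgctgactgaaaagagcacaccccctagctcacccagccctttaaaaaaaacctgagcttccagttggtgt

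The matches began 156 and 122 bases before the start of Ifit3, 104 and 85 bases before Ifit1, and 78, 72 and 66 bases before Isg15, where the 3 overlap. Of the 28 interferon-stimulated genes with a promoter in the table, 13 held at least 1 match, and of the 19 that also were tested in MicroG1, 9 (47.4%) did. The background was 190 of 5893 tested genes (3.22%), and 978 of all 32851 promoters (2.98%). The Ccl12 window held no match. A match is a description of the letters and no evidence of binding.

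Across the interferon list the direction after occlusion was mostly downward, though only Ifit3 passed the test. Of 37 listed genes 24 were tested: 1 was called lower, 8 were lower and 0 higher at an unadjusted p under 0.05, and the median log2 change was -0.54, beside -0.0013 over all 7599 genes, of which 3 were called lower, and 191 were lower and 138 higher at the unadjusted level. Isg15, a ubiquitin-like modifier, had 102 and 26.4 normalised CPM in controls, 31.1 and 35.1 after occlusion and 16.9 and 28.6 after training, so that control 1 stood alone. Ifit1 had 18.1 and 19.1 in controls, 0 and 7.97 after occlusion and 6.34 and 4.30 after training. Ifi204, a DNA sensor of the same program, had 55.5 and 23.5, then 19.0 and 19.1, then 13.7 and 15.8, with both controls above the rest. None of the last 3 had an adjusted p under 0.05. After training the list had 0 genes called, 6 lower and 0 higher at an unadjusted p under 0.05, and a median of -0.41, beside 211 lower, 178 higher and a median of -0.0066 over all genes. Between 0 and 3 of the list were called after training over the settings tried, where 0 to 12 of all genes were. Without control 1 the medians were -0.21 after occlusion and -0.092 after training, and without trained 1 the training median was -0.098. The 37 genes summed to 1901 and 1364 CPM in MicroG1 of controls, 998 and 1340 after occlusion and 1119 and 1498 after training. MicroG2 had 2141 and 1401, 1047 and 1102, and 1308 and 1583 CPM. MicroG3 had 2068 and 1155, 1029 and 1627, and 828 and 1492. All annotated cells had 1921 and 1629, 1314 and 1698.5, and 1113 and 1576. Control 1 was highest in each of these, so its high level was not particular to MicroG1.

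Cells with at least 5 interferon-stimulated genes detected were 11.5% and 7.58% of MicroG1 in controls, 6.69% and 6.48% after occlusion, and 5.11% and 11.01% after training. With each cell thinned to 500 UMIs, cells with at least 3 such genes numbered 27 and 14 in controls, 3 and 12 after occlusion and 9 and 15 after training, which is 6.59% and 3.93%, 1.18% and 3.11%, and 1.77% and 4.35%. Controls lay above the occluded libraries under either count, and trained 2 lay within the control range under both.

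**Figure D3:**
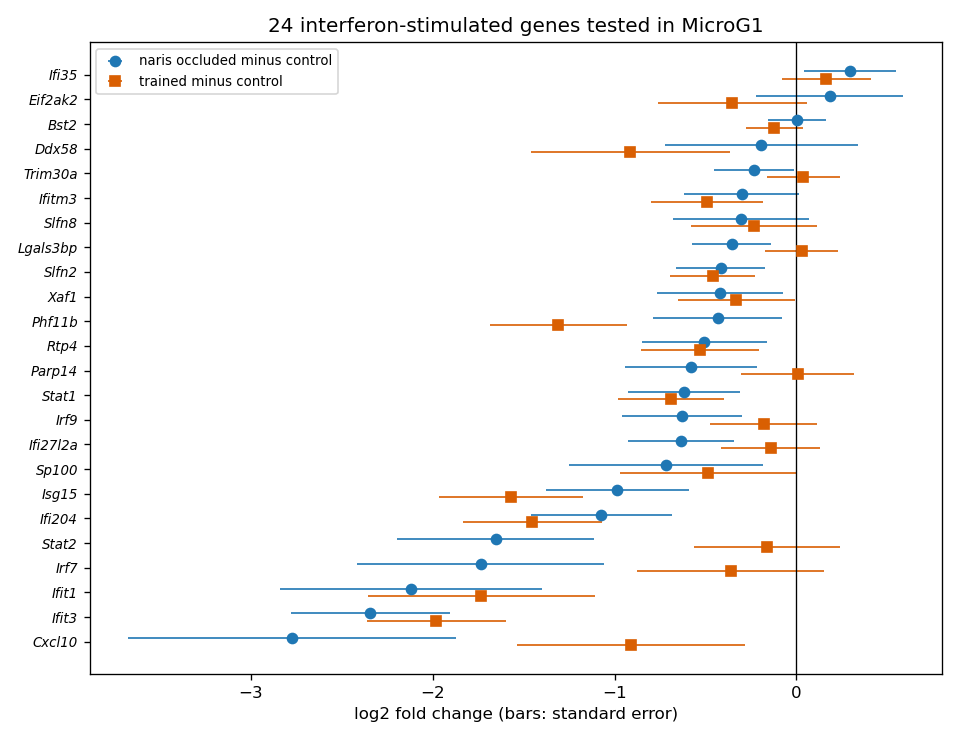
Log2 fold change against control, with bars of 1 standard error, for the 24 interferon-stimulated genes tested in MicroG1, after occlusion (circles) and after training (squares). Most points lie left of 0, with Ifit3 at -2.34 and -1.98 and Cxcl10 at -2.77 after occlusion, where 26 of its 29 UMIs in control 2 came from 1 cell, and both sets of points share the same control libraries.

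S100a5 is not a microglial gene, and its level in MicroG1 followed its level in the whole tissue. It had 612 and 546 normalised CPM in controls, 238 and 108 after occlusion and 712 and 321 after training, a log2 change of -1.75 after occlusion (SE 0.27, adjusted p = 0.00121) and 1.59 between trained and occluded libraries (SE 0.26, adjusted p = 0.00376). The second difference was 0.90 without trained 1 (adjusted p = 0.0201) and 1.13 without naris occluded 2 (adjusted p = 0.0229), and the first was -1.28 without naris occluded 2 (adjusted p = 0.00828). All annotated cells together had 1250 and 1196, 534 and 207, and 1261 and 753 CPM. Astro1, which should lack it too, had 591 and 584, 246 and 105, and 597 and 340.3 CPM, and the ensheathing cell cluster OEC4 had 541 and 601, 193 and 162, and 638 and 329. The 10 sensory neuron markers as a sum stood at 1075 and 896 CPM in MicroG1 of controls, 562 and 448 after occlusion and 1342 and 665 after training, with Ano2 and Rtp1 at 0 UMIs. This sum includes S100a5 itself, so it is no separate result. S100a5 had 1950 UMIs in MicroG1, Gng13 had 1661, and each other marker had 77 or fewer. The 19 neuron markers summed to 1496 and 1254, 1064 and 882, and 1563 and 1088 CPM. Over all annotated cells that sum was 6339 and 5586, 6432 and 5795, and 6521 and 6388 CPM. Unlike S100a5, it did not fall after occlusion in the whole tissue. Snap25, a synaptic vesicle fusion gene, had 207 and 197 normalised CPM in controls and 121 and 90.9 after occlusion, a change of -0.93 with adjusted p = 0.0637. The part of free RNA in these levels was not tested.

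**Figure D4:**
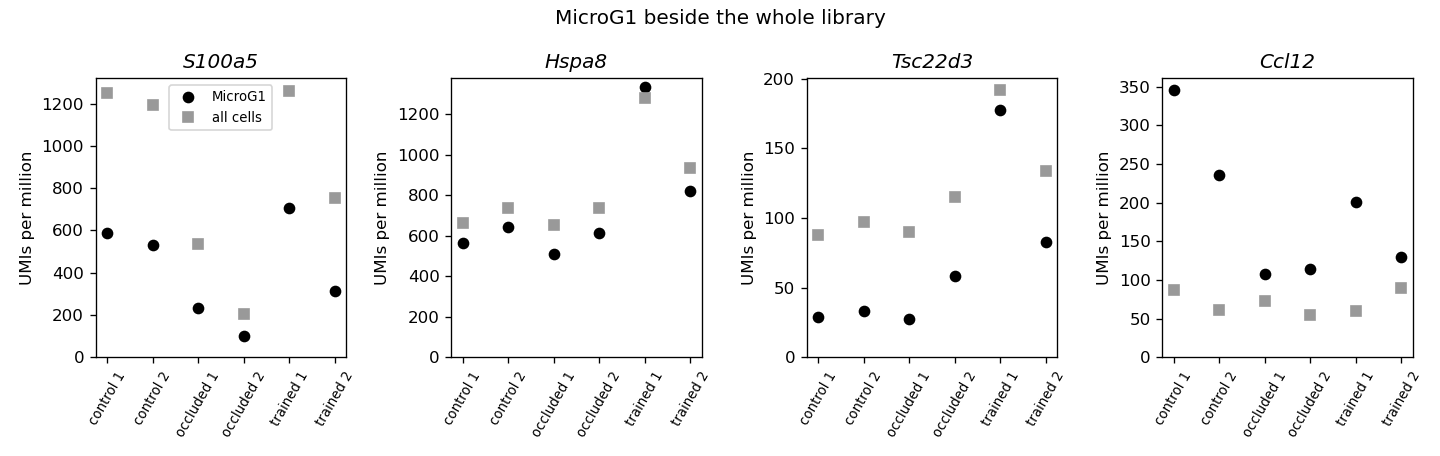
CPM of 4 genes in MicroG1 (circles) and in all annotated cells (squares) of each of the 6 libraries. S100a5 is lowest in occluded 2 in both (101 and 207 CPM), Hspa8 and Tsc22d3 are highest in trained 1 in both, and Ccl12 is lowest in the 2 occluded libraries in MicroG1 but not over all cells.

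The hemoglobin calls rested on 2 cells, and on 1 of them above all. Naris occluded 2 had 771 hemoglobin UMIs in MicroG1, against 43 to 145 in the other libraries, and 663 of them were in a single cell of 4107 UMIs. A second cell of that library held 11. Hba-a1 had 268 normalised CPM there and 2.86 to 31.1 elsewhere, and Hbb-bs 729 and 42.6 to 129. Without the 2 cells with at least 5 hemoglobin UMIs, an alternative added after the data were seen, Hba-a1 and Hbb-bs changed by 0.72 and 0.34 after occlusion and were not called, while Ccl12, Ifit3 and S100a5 still were.

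Between trained and control libraries 389 genes had an unadjusted p under 0.05 in MicroG1, and 1 gene had an adjusted p under 0.05 (0.0132% of 7599). This was Tsc22d3, also called Gilz, a leucine zipper protein gene induced by glucocorticoids. It had 29.7 and 33.8 normalised CPM in controls, 27.6 and 62.2 after occlusion and 179 and 84.5 after training, a rise of 2.09 on the log2 scale (SE 0.30, adjusted p = 0.00115). Both trained libraries lay above the other 4. The UMIs were spread over cells, 169 in 129 cells of trained 1 and 59 in 54 cells of trained 2, against 23 in 22 and 23 in 23 control cells. The call held with any single library left out, down to 1.42 (adjusted p = 0.0184) without trained 1. With DESeq2's Wald test the difference was 2.06 and was not called (adjusted p = 1.00). Against occlusion the rise was 1.57 (SE 0.30, adjusted p = 0.0127), and without trained 1 it was 0.89 (adjusted p = 0.482). In all annotated cells Tsc22d3 stood at 87.4 and 97.2 CPM in controls, 90.0 and 115 after occlusion and 192 and 134 after training, so the trained libraries were highest there as well. MicroG2 had 134 and 226 CPM in controls, 128 and 211 after occlusion and 263 and 168 after training, and MicroG3 had 50.6 and 48.5, 40.3 and 51.1, and 116 and 16.0 on 2 to 25 UMIs a library, so that trained 2 was not above all the other conditions in either.

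The 4 genes next in order of p, which did not pass, were Ifit3 and Ccl12, given above, Per3 and Hspa8. Per3, a component of the circadian clock, had 5.16 and 17.6 normalised CPM in controls, 20.7 and 6.38 after occlusion and 40.2 and 47.3 after training, a difference from control of 1.96 (SE 0.42, adjusted p = 0.171). Hspa8, the constitutive chaperone Hsc70, had 587 and 660.4, 516 and 657, and 1344 and 835, a difference of 0.81 (SE 0.18, adjusted p = 0.171). In both genes the trained libraries lay above the other 4. Trained mice were water restricted, and the sources used here do not give the hour of tissue collection, so training, thirst and time of day cannot be told apart.

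Between trained and occluded libraries 9 of 7599 genes (0.118%) passed, 4 of them the hemoglobin genes. They were 4 higher (0.0526%) and 5 lower (0.0658%) in trained libraries, and 538 had an unadjusted p under 0.05. Tsc22d3 and S100a5 are given above. Hspa8 was higher by 0.90 (SE 0.18, adjusted p = 0.0259) and Dynll1, a light chain of the motor protein dynein, by 0.94 (SE 0.17, adjusted p = 0.0108), with 592 and 391 normalised CPM after training, 242 and 271 after occlusion and 305 and 296 in controls. Without trained 1 these were 0.51 and 0.61 and neither was called (adjusted p = 0.517 and 0.239), and without naris occluded 1 Hspa8 had adjusted p = 0.0538. In all annotated cells Hspa8 stood at 1279 and 935 CPM in trained libraries against 654 and 736 in occluded ones, and Dynll1 at 913 and 696 against 474 and 583. Adamts1, a secreted metalloprotease gene, was lower by 1.68 (log2 fold change -1.68, SE 0.35, adjusted p = 0.0380), with 16.9 and 12.9 normalised CPM after training and 46.6 and 51.0 after occlusion, and its adjusted p was 0.204 without naris occluded 2 and 0.0691 without the 2 hemoglobin-rich cells. Adamts1 rested on few UMIs, 16 and 27 in controls, 27 and 32 after occlusion and 16 and 9 after training. With DESeq2's Wald test 0 of the 9 genes were called. The other 4 lower genes were Hbb-bs (-3.19), Hba-a1 (-4.61), Hba-a2 (-4.43) and Hbb-bt (-3.14), and none of these was called without the 2 hemoglobin-rich cells.

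**Figure D5:**
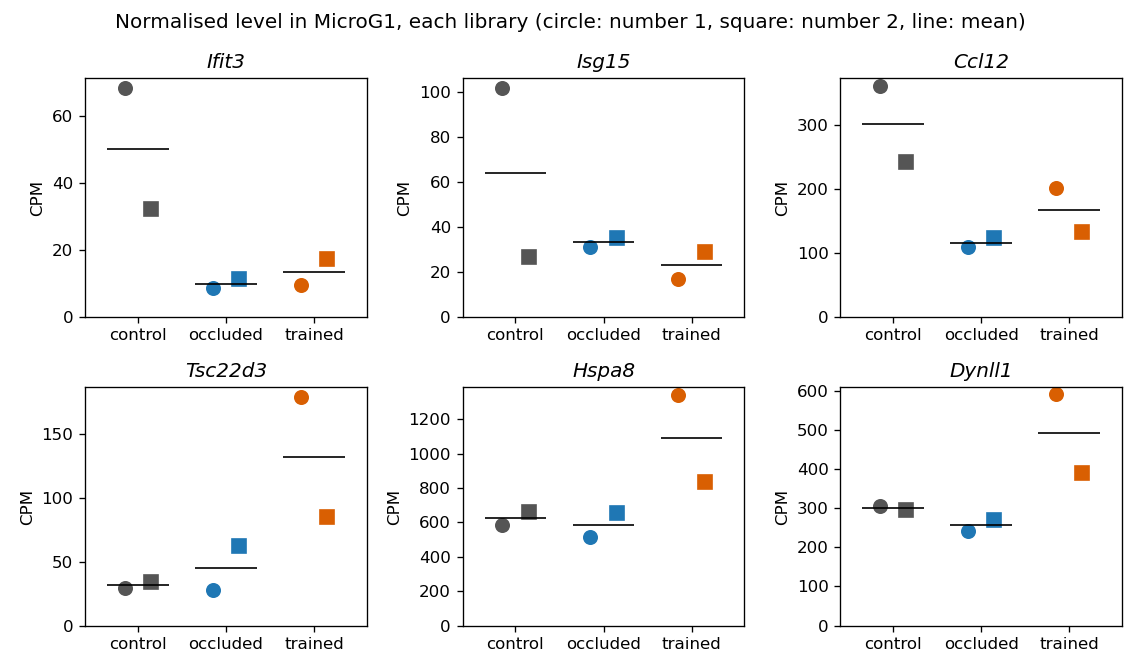
Normalised CPM of 6 genes in MicroG1, 1 point per library (circles for number 1, squares for number 2) with a line at the mean of each condition. Ccl12 is lowest in the 2 occluded libraries (109 and 123), Tsc22d3, Hspa8 and Dynll1 are highest in the 2 trained ones, and Isg15 is high in control 1 alone (102).

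Called genes were rare in every comparison of conditions (0.0658%, 0.0132% and 0.118% of all genes tested), so that lists of this size would mostly hold none, and a count of 0 says little about a program. Of the 25 homeostatic identity genes, all tested, 0 were called in any comparison of conditions, with medians of -0.00052 after occlusion and 0.045 after training. Siglech had 868 and 944 normalised CPM in controls, 1062 and 828 after occlusion and 811 and 1074 after training, and Aif1 ranged from 1113 to 1329. P2ry12 differed between conditions by less than between the 2 libraries of a condition (1890 to 2475 after occlusion and 1700 to 2502 after training). The complement and adhesion list (11 tested), the phagocytosis and Fc receptor list (20), the receptor list for neuronal and astrocytic signals (42), the myeloid transcription factors (39), lipid and sterol handling (23), iron and redox (20), glycolysis (19), motility and actin (29) and antigen presentation (23) likewise had 0 genes called between conditions.

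Lysosomal and damage-associated genes leaned lower after training than after occlusion without any call in the main fit. Of 32 tested lysosomal genes 10 were lower and 0 higher at an unadjusted p under 0.05, with a median of -0.23 beside 0.0024 over all genes, of which 259 of 7599 were lower and 279 higher at that level. Ctsb, a cysteine protease, had 1448 and 1777 normalised CPM after training and 2221 and 2161 after occlusion, a difference of -0.44 (SE 0.14, adjusted p = 0.416). Cd63, a tetraspanin of late endosomes, had 764 and 864 against 1088 and 1329.9, a difference of -0.57 (SE 0.15, adjusted p = 0.189), the lowest of the list. Summed over the list, MicroG1 had 40012 and 46495 CPM after training and 51782 and 49138.5 after occlusion. MicroG2 had 38230.5 and 43122.5 against 45847 and 44883, and MicroG3 24007 and 28155 against 28627 and 29399. All annotated cells had 7453 and 9021.5 against 8240 and 8435 CPM. Trained 1 was the lowest library in each of these, so its low level was not particular to MicroG1. Without trained 1 the lysosomal median was -0.13 and the count 2. Of 22 tested damage-associated genes, which share Cd63, Ctsb and others with the lysosomal list, 10 were lower and 0 higher, with a median of -0.28, and without trained 1 these were 4, 1 and -0.24. The lipase gene Lpl had 18.0 and 14.3 normalised CPM after training, 29.4 and 73.3 after occlusion and 29.7 and 38.2 in controls. Its difference of -1.66 (SE 0.37, adjusted p = 0.0769) between trained and occluded libraries was the lowest of the damage-associated list. With a replicate block 2 damage-associated genes were called in this comparison, where 19 of all genes were.

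Immediate early and heat shock genes gave 1 call, Hspa8 between trained and occluded libraries, among 33 tested (0.118% of all genes were called in that comparison). Jun, an AP-1 subunit, had 561 and 547 normalised CPM after training and 770.2 and 1024 after occlusion, a difference of -0.70 (SE 0.16, adjusted p = 0.0912). Hsph1, an Hsp110 chaperone gene, had 47.6 and 22.9 after training against 10.3 and 11.7 in controls (difference 1.72, SE 0.42, adjusted p = 0.326). That was the largest rise of the list, whose median in this comparison was -0.030. Among 22 tested cytokine, chemokine and growth factor genes Ccl12 was the only one called between conditions, after occlusion, where 0.0658% of all genes were. Cxcl10, an interferon-induced chemokine, was uneven within conditions, with 6.46 and 42.6 in controls, 1.73 and 4.78 after occlusion and 21.1 and 1.43 after training. Single cells held 26 of the 29 UMIs of control 2 and 19 of the 20 of trained 1.

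Libraries numbered 2 differed from those numbered 1 in 27 genes (0.355% of 7599), 23 higher (0.303%) and 4 lower (0.0526%), in a fit with condition as a term. Xist, the RNA that silences an X chromosome, had 1264, 1195 and 1547 UMIs in the number 2 libraries and 0 in the number 1 libraries, and its antisense partner Tsix 84, 93 and 84 against 0. The Y-linked genes Ddx3y (56, 41 and 89 UMIs), Eif2s3y (46, 22 and 30) and Uty (14, 10 and 22) were found in number 1 alone. These match the sexes that the study states. Ccl3 was higher in number 2 by 0.76 (SE 0.15, adjusted p = 0.00107), with 258, 324 and 238 normalised CPM against 208, 135 and 138, and Ccl4 by 0.54 (SE 0.13, adjusted p = 0.0361), with 385, 399 and 265 against 298, 233 and 186. Ccl3 lost the call without either occluded library and Ccl4 with any library left out. S100a5 was lower in number 2 by 0.76 (log2 fold change -0.76, adjusted p = 0.000682).

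The other genes of that comparison need caution. Rps18-ps3 (1.33), Rpl13a-ps1 (1.04), Rpl9-ps6, Rpl13-ps3, Rpl27-ps3, Rpl23a-ps3 and Rps27rt are copies of ribosomal protein genes, and Gm8444 (1.65), Gm17430 (1.89), Gm10036, Gm9493, Gm10116 and Gm10269 are gene models, so reads shared with parent genes make their changes uncertain. The same holds for Rnaset2a and Rnaset2b, which are near-identical to each other, and for Erdr1 (2.48), which lies in a repeated region of the sex chromosomes. Wdr89 was the remaining gene besides Hba-a1 (1.58) and Hba-a2 (2.32). Without the hemoglobin-rich cells Hba-a1 was at -1.66, the opposite direction.

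Whether a condition acted differently on MicroG1 than on the other microglia was tested as the interaction of cluster and condition within libraries. After occlusion 8 of 6902 genes (0.116%) differed between MicroG1 and MicroG2, and after training 4 (0.058%), among them Tsc22d3, whose rise was larger in MicroG1 by 1.79 (SE 0.31, adjusted p = 0.00153), and Ccl12, whose difference was -0.93 (SE 0.20, adjusted p = 0.0288). Against MicroG3, 5 of 6320 genes (0.0791%) differed after occlusion and 3 (0.0475%) after training, and all but Ccl4 and Ccl3 were hemoglobin genes. Without the library block 0 differences were called in any of the 4 cases. Ccl12 and Ifit3 were not among the genes whose occlusion effect differed between MicroG1 and either cluster, which does not show that the effects were alike.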

How the data were processed

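The 6 libraries were 10x Chromium 3′ libraries of dissociated olfactory bulb. The authors deposited a table of raw UMI counts per gene and cell (18560 genes, 52549 barcodes) and an annotation of 51426 cells. Per the submitters' processing notes they used Cell Ranger 2.0.0, Seurat 2.2.1 and build mm10, and the authors removed doublets and clustered on values corrected for depth and mitochondrial share. The deposited annotation also holds a mitochondrial fraction, used here as a percent per cell. 1123 barcode columns without annotation were not used. A few genes are not reported here, though they stay in every fit and count. The library came from the annotation, since the cell-name starts of the 2 trained libraries are exchanged (17275 cells).

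Counts were summed over MicroG1 per library and tested with edgeR 4.0.16 (R 4.3.3, quasi-likelihood, TMM, filterByExpr, all 6 libraries, condition only, Benjamini-Hochberg over 7599 genes, 0.05). DESeq2 1.42.0 was an alternative. Differences of effect between clusters were interaction terms with a library block. Ratios used 10 CPM added and a minimum of 50 CPM. Scripts were tested on simulated data. Summed counts of 587268 to 952867 UMIs set the precision, and a gene at 20 CPM rests on under 20 UMIs a library. With 2 against 2 libraries an exact permutation test cannot go below 0.333. It was not used for genes, and only as an alternative for the MicroG1 share of the 3 microglial clusters, where no difference could pass. Tests measure the spread between pools of mice, which in the fits of condition includes the stated difference in sex.

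Members and gene lists were chosen with earlier results of these data known. Genes named were the 10 largest called changes per comparison with the same direction in both numbers, the 5 of lowest p where fewer than 5 were called, called members of the 27 lists, the 15 most abundant genes, and the 10 highest and lowest ratios to each of 4 clusters, with examples from the lists. Wdr89 and other called genes outside the rule were named after their values were seen.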

Additional observations from a re-analysis of the deposited data

Results flagged for a closer look

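The effect of a condition on a gene can be compared between MicroG1 and another cluster by the interaction of cluster and condition in the same libraries (edgeR's quasi-likelihood test, adjusted p under 0.05). Without the library block in the fit 0 differences were called. Values are the log2 effect in MicroG1 minus that in the other cluster. Between MicroG1 and MicroG2, 8 of 6902 genes (0.116%) differed in the effect of occlusion. Chemokine Ccl5 differed by 4.68, but its UMIs were in few cells: 46 of the 59 in naris occluded 1 of MicroG1 were in 1 cell, and MicroG2 had 253 in control 2 and 2 to 28 elsewhere. Npy (0.98) and Ptn (0.83), abundant genes of ensheathing glia, differed as well: Ptn had 446 and 467 CPM in controls and 393 and 451 after occlusion in MicroG1, against 719 and 859 and then 496 and 346 in MicroG2. M6pr, a receptor that carries enzymes to the lysosome, differed by -1.33, with 129 and 127 CPM in controls and 116 and 90.7 after occlusion in MicroG1, against 78.8 and 70.7 and then 136 and 169 in MicroG2. The hemoglobin genes Hbb-bs (2.37), Hba-a1 (4.23) and Hba-a2 (3.36) also were among the 8.

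For training, 4 of the 6902 genes (0.058%) differed between these clusters. Tsc22d3 rose more in MicroG1 by 1.79: it had 28.5 and 32.8 CPM in controls and 177 and 83.0 after training there, against 134 and 226 and then 263 and 168 in MicroG2. Ccl4 differed by -1.04, Ccl12 by -0.93 and Ptn by 0.81. Ccl4 had 287 and 374 CPM in controls and 185 and 260.1 after training in MicroG1, against 2117 and 1254 and then 1808 and 2836 in MicroG2.

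Against MicroG3, 5 of 6320 genes (0.0791%) differed in the effect of occlusion: Hba-a1 (3.77), Hbb-bs (2.1955), Hba-a2 (2.18), Ccl4 (-3.33) and Ccl3 (-2.66). MicroG3 had 87 Ccl4 UMIs in naris occluded 2 and 2 to 7 in each other library. For training 3 genes (0.0475%) differed, Hbb-bs (5.32), Hba-a1 (7.76) and Hba-a2 (5.91). None of the hemoglobin differences was called without the cells that hold at least 5 hemoglobin UMIs, of which MicroG1 had 2, MicroG2 1 and MicroG3 3.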

How the results depend on the processing

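With 2 libraries a condition, counts of called genes moved with most settings. For occlusion against control, 5 genes became 1 with DESeq2 (Ccl12), 13 without the filter on low counts, 10 with a replicate block, 0 with all microglia summed, 3 without the hemoglobin-rich cells and 5 to 22 with 1 library left out. For training against control, 1 became 0 with DESeq2, 8 without the filter, 7 with a replicate block, 3 with cells of at least 1000 UMIs, 0 with all microglia summed, 2 without mitochondrial and ribosomal protein genes, 2 without the hemoglobin-rich cells and 1 to 12 with 1 library left out. For training against occlusion, 9 became 0 with DESeq2, 25 without the filter, 19 with a replicate block, 14 with cells of at least 1000 UMIs, 0 with all microglia summed, 4 with only the 2 conditions in the fit, 4 without the hemoglobin-rich cells and 10 to 49 with 1 library left out. Number 2 against 1 gave 27, 8 with DESeq2 and 18 to 32 with 1 library left out. Differences between clusters were 0 in all 4 cases without the library block. They were 4, 6, 3 and 0 without the hemoglobin-rich cells (MicroG2 with occlusion and training, then MicroG3) and 1 to 10, 1 to 9, 2 to 10 and 0 to 6 with 1 library left out. The cause was not tested.

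Reversals were few. The trained difference in MicroG1 cells was -1.50 percentage points as a share of the 3 microglial clusters. Between numbers, Hba-a1 was -0.640 with DESeq2, -0.394 with all microglia summed, -1.66 without the hemoglobin-rich cells, -2.36 without naris occluded 1 and -2.35 without naris occluded 2, within a range of -2.36 to 2.43 with 1 library left out. Hba-a2 was -0.347 and -0.309 without these libraries, within -0.347 to 4.06. Of the settings tried for single named genes, 528 kept direction and call, 138 lost the call, 27 gained it and 7 reversed.

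The block was kept as an alternative because the study's methods use none. Same-numbered libraries deviated together only weakly (correlations over genes of 0.104, 0.154 and 0.0440). These correlations run over all genes and do not show that number was without effect, since 27 genes differed by number. With the block, calls went from 0 to 2 among interferon genes after training, from 0 to 3 among neuron markers after occlusion, and between trained and occluded libraries from 0 to 2 among neuron markers and from 0 to 2 among damage-associated genes, while calls over all genes went from 1 to 7, 5 to 10 and 9 to 19 in these comparisons. Depth limits genes under about 20 CPM, and no difference in such a gene can be called absent.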
